A study of Mus musculus with 8 samples.

Results

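The genes described here encode the CD3 complex and the proteins that act directly beside the T cell receptor (TCR): Cd3d, Cd3e, Cd3g, Cd247, Cd4, Cd28, Ptprc, Lck, Zap70 and Lat. They were listed by symbol from textbook knowledge of TCR signalling, with earlier results of these data known. They are 10 of the 56980 genes of the count table. Their levels were compared between regulatory T cells (Tregs) of 4 HADA and 4 control libraries. Both groups were male C57BL/6j mice, bought at the age of 8 weeks. HADA (high altitude de-acclimatization) mice were housed for 28 days under the low pressure of 6000 m of altitude, in a chamber, and then returned to normoxia, while control mice were kept in normoxia throughout. Tregs were sorted from peripheral blood by flow cytometry, and the day of the sort for sequencing is not given in the sources used here. The labels do not say whether the 4 libraries of a group came from separate animals, so the p-values measure only the spread between these samples.

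The TCR chains have no signalling tail of their own. They depend on the CD3 delta, epsilon and gamma chains and on the zeta chain (Cd247), whose tyrosine motifs are phosphorylated by the kinase LCK, which is held at the coreceptor CD4 and kept active by the phosphatase CD45 (Ptprc). Phosphorylated motifs recruit the kinase ZAP70, which phosphorylates the adaptor LAT, and CD28 adds a costimulatory signal. In Tregs this machinery is needed for suppressive function, and FOXP3 is the defining transcription factor.

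Libraries that stood apart are named first. Control replicate 1 had 1477431 counts in all, against 14452433 in control replicate 2, 22584062 in control replicate 3 and 21587245 in control replicate 4. The HADA libraries held between 22929193 and 28240337 counts. Control replicate 2 stood apart in another way: the 10 genes together took 0.0678% of its counts, against 0.464% in control replicate 1, 0.296% in control replicate 3 and 0.337% in control replicate 4. In HADA replicates 1 to 4 this share was 0.482%, 0.472%, 0.619% and 0.571%. The share was thus higher in all 4 HADA libraries than in all 4 control libraries. Mitochondrial transcripts took 3.81%, 0.636%, 1.88% and 2.44% of the counts in control replicates 1 to 4 and 7.59%, 5.86%, 6.33% and 5.02% in HADA replicates 1 to 4, again without overlap. The part of this difference in the levels below was not tested.

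Reads were counted over whole gene spans, introns included. Olfactory and vomeronasal receptor genes, which Tregs are not known to use, gave a measure of reads spread over the genome. On these genes the mean density was 0.337 CPM per kb (CPM is a count divided by the scaled library total, times 1e6) in control replicate 2, 0.288 in control replicate 3, 0.202 in control replicate 4 and 0.0493 in control replicate 1. In HADA replicates 1 to 4 it was 0.211, 0.185, 0.171 and 0.120 CPM per kb. Without the 5% of these genes with the highest density, the values were 0.044, 0.331, 0.284 and 0.186 CPM per kb in control replicates 1 to 4 and 0.0832, 0.0844, 0.0647 and 0.0596 in HADA replicates 1 to 4. On this measure all HADA libraries lay below control replicates 2, 3 and 4 and above control replicate 1. Levels of the genes below are CPM scaled with TMM factors, which ran from 0.628 in HADA replicate 4 to 2.24 in control replicate 2, and levels of the 10 genes are compared with each other only per kb.

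CD3 delta (Cd3d) and CD3 gamma (Cd3g) each pair with CD3 epsilon in the complex. Cd3d stood at 271, 53.1, 75.1 and 61 CPM in control replicates 1 to 4 and at 768, 406, 1014 and 799.7 CPM in HADA replicates 1 to 4. Cd3g stood at 327, 5.1, 50.4 and 262 CPM in control and at 1031, 548, 1529.7 and 1792 CPM in HADA. For both genes every HADA library lay above every control library, and control replicate 1 was the highest of the control libraries. The log2 fold change, HADA against control, was 2.70 ± 0.78 for Cd3d (SE, 95% interval 1.01 to 4.40, edgeR adjusted p = 0.0854) and 2.93 ± 1.06 for Cd3g (SE, 95% interval 0.63 to 5.23, edgeR adjusted p = 0.127). A gene was called where the adjusted p was below 0.05 and its log2 fold change was above 1 or below -1, and neither gene reached this. The receptor-gene density over the span of Cd3g gives 71.7% of its level in control replicate 2, and at most 6.21% in any other library. In these bulk samples, fewer cells of a type and less RNA per cell cannot be told apart.

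The zeta chain gene Cd247 carries most of the phosphorylation motifs of the complex. It stood at 183, 10.9, 52.2 and 69.1 CPM in control replicates 1 to 4 and at 226, 199, 453 and 326 CPM in HADA replicates 1 to 4. The groups did not overlap, with control replicate 1 close below the lowest HADA library. Its log2 fold change was 1.94 ± 0.86 (SE, 95% interval 0.07 to 3.81, edgeR adjusted p = 0.177). Other genes' spans cover 60.8% of the exon bases of Cd247, Pou2f1 among them, and reads there were not counted, so its level is uncertain. The receptor-gene density over its counted span gives 226%, 40.4% and 21.4% of its level in control replicates 2, 3 and 4.

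CD3 epsilon (Cd3e) stood at 198, 1.41, 219 and 77 CPM in control replicates 1 to 4. In HADA replicates 1 to 4 it stood at 183, 272, 413 and 413 CPM. Here the groups overlapped: control replicates 1 and 3 lay above HADA replicate 1. HADA exceeded control by a log2 fold change of 1.37 ± 1.05 (SE, 95% interval -0.91 to 3.66, edgeR adjusted p = 0.382). Other spans cover 43.7% of the Cd3e span and 15.3% of its exon bases. In control replicate 2 the receptor-gene density gives 146% of its level.

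**Figure D1:**
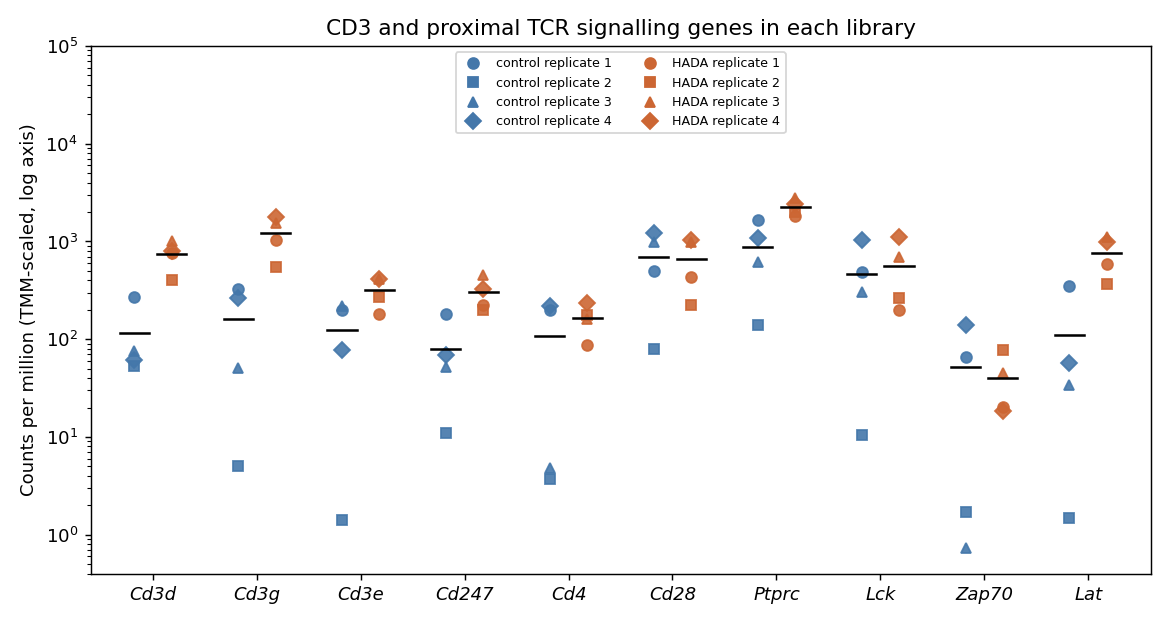
Level of each gene in each library, in TMM-scaled CPM on a log axis. Blue marks are control libraries, orange marks HADA libraries, marker shape gives the replicate and black lines are group means (n = 4). All HADA marks lie above all control marks for Cd3d, Cd3g, Cd247, Ptprc and Lat.

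Per kb of exon, Cd3g and Cd3d stood highest of the 10 genes in HADA, with group means of 374 and 289 CPM per kb, ahead of Lat at 269.8. In control the order differed: Lck led at 146 CPM per kb and Cd28 followed at 113, while Cd3g and Cd3d stood at 49.2 and 44.5. The lowest means per kb were those of Cd247 (13.4) and Zap70 (14.7) in control and of Zap70 (11.3) in HADA. The ranges of neighbours in these orders overlapped between libraries, and the level of Cd247 lacks the reads that were not counted. The order depends on the divisor, since introns were counted too. Per kb of span, control means were 20.7 for Cd3d, 19.4 for Lat, 18.2 for Lck, 14.8 for Cd3g and 12.3 for Cd28, and HADA means were 135 for Cd3d, 133 for Lat and 113 for Cd3g.

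Cd3g, Cd3d and Cd3e lie in a stretch of 40056 bases on chromosome 9, and the spans of Cd3g and Cd3d, which point away from each other, are 1354 bases apart. The 250 bases before the start sites of these 3 genes, and of Cd247 and Lat, are shown because 4 of these 5 genes had the lowest unadjusted p-values among the 10 and Cd3e shares the stretch. They were read from GRCm39 at the start of the GENCODE vM39 canonical transcript and run 5′ to 3′ on the strand of the gene. Capitals mark ACGTG, the core of the hypoxia response element, and TGTGGT, a RUNX motif, on either strand.
Cd3g, chr9:44891736-44891985, minus strand: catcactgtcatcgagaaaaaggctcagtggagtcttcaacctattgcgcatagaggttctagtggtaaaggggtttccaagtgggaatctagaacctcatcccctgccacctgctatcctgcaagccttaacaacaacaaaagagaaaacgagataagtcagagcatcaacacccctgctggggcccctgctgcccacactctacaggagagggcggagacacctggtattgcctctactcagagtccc
Cd3d, chr9:44892833-44893082, plus strand: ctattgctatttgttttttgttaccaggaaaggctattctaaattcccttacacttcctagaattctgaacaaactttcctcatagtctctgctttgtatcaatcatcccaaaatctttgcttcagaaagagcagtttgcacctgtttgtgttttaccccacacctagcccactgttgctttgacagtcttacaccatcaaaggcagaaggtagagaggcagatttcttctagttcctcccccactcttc
Cd3e, chr9:44920912-44921161, minus strand: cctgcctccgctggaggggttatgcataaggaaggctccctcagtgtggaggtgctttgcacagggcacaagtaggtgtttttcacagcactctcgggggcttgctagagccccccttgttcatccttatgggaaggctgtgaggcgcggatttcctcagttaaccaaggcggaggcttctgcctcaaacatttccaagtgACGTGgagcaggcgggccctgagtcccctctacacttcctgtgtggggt
Cd247, chr1:165616000-165616249, plus strand: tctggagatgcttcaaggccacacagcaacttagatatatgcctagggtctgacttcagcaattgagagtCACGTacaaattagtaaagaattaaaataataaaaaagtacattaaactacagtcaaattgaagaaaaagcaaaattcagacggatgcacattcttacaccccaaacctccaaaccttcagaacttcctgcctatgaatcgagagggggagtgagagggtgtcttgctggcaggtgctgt
Lat, chr7:125968811-125969060, minus strand: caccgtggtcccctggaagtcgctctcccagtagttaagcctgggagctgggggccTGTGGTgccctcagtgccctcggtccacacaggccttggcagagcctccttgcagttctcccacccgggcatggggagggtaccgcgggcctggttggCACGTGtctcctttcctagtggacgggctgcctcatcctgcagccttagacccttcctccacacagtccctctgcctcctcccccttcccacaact

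ACGTG was found in 4 of the 10 windows, those of Cd4, Cd3e, Cd247 and Lat, and in 17% of 21757 windows of protein-coding genes. In the Lat window both strands match in overlapping positions, 96 to 91 bases before the start. TGTGGT was found in 3 of the 10 windows (Lck, Lat and Cd28) and in 13% of all. The antioxidant response element core TGACNNNGC was in 0 of the 10 and in 9.7% of all, and the ETS motif CGGAAG was in 0 of the 10 and in 14.3% of all. Only these strings of letters were searched, so other forms of the motifs could be present. Cd3g and Cd3d, the genes with the lowest p-values, held none of these strings. A match is a description of letters only.

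The coreceptor gene Cd4, by whose product the cells are usually gated, stood at 199, 3.73, 4.79 and 220.2 CPM in control replicates 1 to 4. In HADA replicates 1 to 4 it stood at 88, 176, 162 and 234 CPM. Control replicates 2 and 3 were far below the other 6 libraries, and control replicates 1 and 4 lay within the HADA range. For Cd4 the log2 fold change was 0.63 ± 1.14 (SE, 95% interval -1.86 to 3.12, edgeR adjusted p = 0.721). The receptor-gene density over the counted span of Cd4 gives 7.93 CPM in control replicate 2 and 6.78 CPM in control replicate 3, above the level of Cd4 there.

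CD28 binds CD80 and CD86 on antigen-presenting cells. Cd28 stood at 498, 78.9, 988 and 1211 CPM in control replicates 1 to 4 and at 434, 222, 980.3 and 1041 CPM in HADA replicates 1 to 4. The groups overlapped nearly fully, with 3 control libraries above the lowest HADA library. On the log2 scale the fold change was -0.05 ± 0.84 (SE, 95% interval -1.89 to 1.78, edgeR adjusted p = 0.971). Its sign turned under other settings, to 0.26 with limma and to 0.42 without control replicate 4.

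CD45, encoded by Ptprc, had at least 2698 counts in every library. Its level was 1677, 139.7, 612 and 1077 CPM in control replicates 1 to 4 and 1831, 1999, 2816 and 2392 CPM in HADA replicates 1 to 4. The groups did not overlap, but control replicate 1 lay close to HADA replicate 1. The log2 fold change was 1.37 ± 0.74 (SE, 95% interval -0.24 to 2.97, edgeR adjusted p = 0.237). All white blood cells express Ptprc, so it does not mark T cells.

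The kinase gene Lck stood at 486, 10.5, 301 and 1045 CPM in control replicates 1 to 4. In HADA replicates 1 to 4 it stood at 201, 263, 691 and 1114 CPM. Apart from the low value in control replicate 2, the groups spanned nearly the same range. The log2 fold change was 0.30 ± 1.03 (SE, 95% interval -1.94 to 2.54, edgeR adjusted p = 0.855), and it was -0.11 without control replicate 2.

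Zap70 stood at 65.9, 1.72, 0.734 and 141 CPM in control replicates 1 to 4 and at 20.5, 77.4, 44.7 and 18.6 CPM in HADA replicates 1 to 4. Control replicates 1 and 4 were among the 3 highest libraries, and control replicates 2 and 3 were the lowest. For Zap70 the log2 fold change was -0.37 ± 1.30 (SE, 95% interval -3.19 to 2.44, edgeR adjusted p = 0.857). The sign turned without control replicate 4 (0.88), with limma (1.27) and with the replicate number as a block (1.73). In control replicates 2 and 3 the receptor-gene density over the counted span gives 6.74 and 5.76 CPM, more than the level of Zap70 itself.

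LAT is the adaptor on which phospholipase C and the RAS pathway assemble. Lat stood at 354, 1.5, 33.7 and 57.5 CPM in control replicates 1 to 4. In HADA replicates 1 to 4 it stood at 582, 367, 1116 and 995 CPM. Every HADA library was above every control library, though control replicate 1 (354 CPM) was close to HADA replicate 2 (367 CPM). The log2 fold change was 2.78 ± 1.20 (SE, 95% interval 0.18 to 5.38, edgeR adjusted p = 0.169). In control replicate 2 the receptor-gene density gives 127% of its level.

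All 10 genes passed the filter on low counts. The list was drawn up with earlier results of these data known, so the shares below describe it and do not test it. With edgeR, 0 of the 10 were called higher in HADA, where 1.65% of all 21991 genes tested were, and 0 were called lower, against 0.477% of all. At an unadjusted p below 0.05, 4 of the 10 were higher (Cd3d, Cd3g, Cd247 and Lat), against 12.0% of all genes, and 0 were lower, against 14.7% of all. The lowest HADA library exceeded the highest control library for 5 of the 10 (Cd3d, Cd3g, Cd247, Ptprc and Lat), against 9.13% of all genes, and for 0 did every HADA library fall below every control library, against 5.70% of all. From CPM without TMM factors, a description added after seeing the data, 3 of the 10 had all HADA above all control libraries (Cd3d, Cd3g and Cd247), against 4.78% of all genes, and Ptprc and Lat overlapped. DESeq2 called 4 higher (Cd3d, Cd3g, Cd247 and Lat), against 11.6% of all genes with an adjusted p, when run on the genes that passed the same filter. Run without that filter, an alternative added after this count was seen, DESeq2 called only 2, Cd3d and Cd3g, against 6.78% of all genes with an adjusted p. limma on log2(CPM + 1) called 1, Cd3d, against 3.70% of all. On simulated data with less spread between libraries than here, a larger share of the calls was false with DESeq2 than with edgeR or limma. The simulated dispersion was 0.2, against 0.805 here, so this does not show which tool is right for these data. The median log2 fold change of the 10 was 1.37, and that of all genes tested was 0.01. With the receptor-gene density subtracted, the median of the 10 was 0.76, against 1.0 over the 9193 genes that passed the filter after it. With the trimmed density it was 0.81, against 1.32 over 11322 genes. The genes kept differ from the 21991 above, and in the main fit the median over those that both fits hold was already 1.18 (9187 genes) and 0.98 (11316 genes). Where each library had to hold 10 or more counts of a gene, the median of the 10 was 0.81 against 0.03 over 8472 genes (0.67 in the main fit), and with limma it was 2.33 against 0.13 over 21991.

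The calls turned on control replicate 1. Without it, edgeR called 3 of the 10 higher, against 15.5% of all genes: Cd3d (log2 fold change 3.70, adjusted p = 0.00805), Lat (4.74, adjusted p = 0.0249) and Cd247 (2.89, adjusted p = 0.0293). The number of all genes called higher went from 363 to 3716 and the number called lower from 105 to 4732. Leaving out any other library, edgeR called 0 of the 10. DESeq2 without control replicate 1, added after seeing the data, called 5 of the 10, the same 4 as with it and Ptprc, against 27.7% of all genes with an adjusted p.

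**Figure D2:**
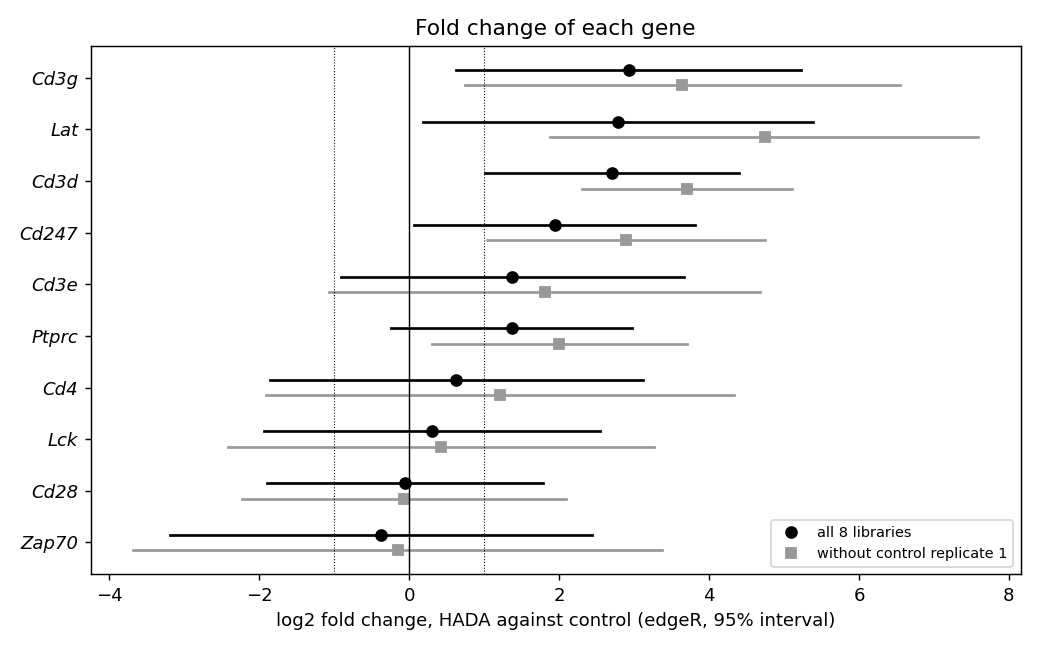
Log2 fold change of each gene, HADA against control, from edgeR with its 95% interval. Black circles are the fit to all 8 libraries, grey squares the fit without control replicate 1, and dotted lines mark a log2 fold change of 1 in either direction. The intervals of Cd3g, Lat, Cd3d and Cd247 lie above 0 in both fits.

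The control libraries varied more among themselves than the HADA libraries did for every gene of the 10. The coefficient of variation of CPM ran from 73% for Cd28 to 146% for Lat in control and from 19.4% for Ptprc to 74.9% for Lck in HADA. Several of the lowest control values lay below what the receptor-gene density gives. Control replicate 2 was the lowest control library for 9 of the 10 genes, the exception being Zap70. Control replicate 1 was the highest for 5, the same genes whose groups did not overlap, and control replicate 4 for 4. Among HADA libraries, replicates 1 and 2 were the lowest for 4 and 5 genes, and replicates 3 and 4 the highest for 5 and 4.

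The makeup of the complex was described within each library, where the scaling between libraries does not enter. With CPM taken per kb of exon, Cd3g made up 45.3%, 39.4%, 45% and 54% of the sum of Cd3d, Cd3e, Cd3g and Cd247 in HADA replicates 1 to 4. In control replicates 1 to 4 its share was 35.2%, 6.42%, 14.4% and 59.6%. Per kb of exon, Cd3g held the largest share in every HADA library. This depends on the divisor, since per kb of span the HADA mean was 135 CPM for Cd3d and 113 for Cd3g. In control, per kb of exon, Cd3d led in replicate 1 (36.8%), Cd3e in replicate 3 (50.2%) and Cd3g in replicate 4. In control replicate 2 Cd3d held 84.5%, but there Cd3e and Cd247 lay below the receptor-gene density and Cd3g not far above it, so the shares of that library do not show a makeup. The summed CPM of the 4 genes was 979, 70.6, 397 and 469 CPM in control and 2209, 1425, 3409.9 and 3331 CPM in HADA.

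The TCR constant-region genes Trac, Trbc1 and Trbc2 encode the chains that CD3 carries. Their summed level was 1545, 66.8, 191 and 809 CPM in control replicates 1 to 4 and 2565, 1477, 3122 and 4848 CPM in HADA replicates 1 to 4. HADA replicate 2 lay just below control replicate 1, and all other HADA libraries lay above every control library. Cd3g came to 21.2%, 7.64%, 26.4% and 32.3% of this sum in control and to 40.2%, 37.1%, 49% and 37% in HADA, without overlap. Cd28 came to 32.2%, 118%, 518% and 149.7% in control and to 16.9%, 15%, 31.4% and 21.5% in HADA, again without overlap but in the other direction. The gap of Cd28 was narrow, with 32.2% in the lowest control and 31.4% in the highest HADA library. Over all genes tested, the same ratio was apart with HADA above for 0.773% and with HADA below for 14.2%. For the other 8 genes the ratios of the groups overlapped. Cd3d, for example, ran from 7.54% to 79.6% in control and from 16.5% to 32.5% in HADA. These ratios were not tested.

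**Figure D3:**
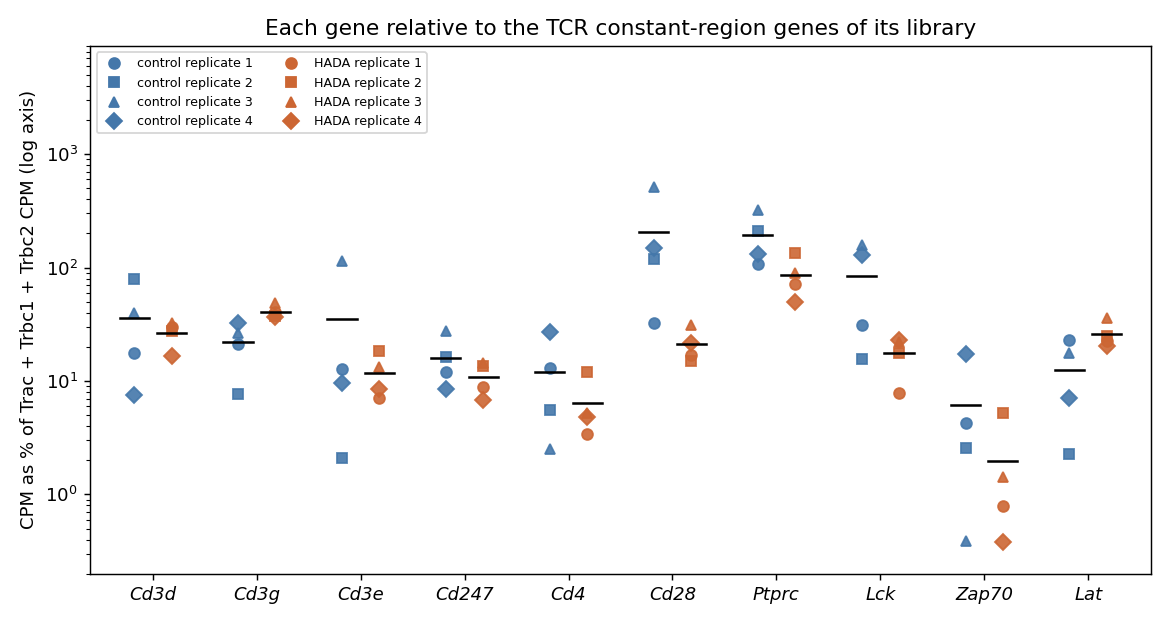
CPM of each gene as a percentage of the summed CPM of Trac, Trbc1 and Trbc2 in the same library, on a log axis, with marks as in the plot of levels and black lines for group means (n = 4). Cd3g lies higher and Cd28 lower in all HADA libraries than in all control libraries.

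Of 57 other genes of TCR signalling, a list also drawn up with earlier results of these data known, 53 passed the filter. Lcp2, Sla and Cd27 are listed at 0 in every library because other gene spans cover them fully, and Dok1 was too low. edgeR called 1 of the 53 higher, where 1.65% of all genes were, and 0 lower. At an unadjusted p below 0.05, 12 were higher, against 12.0% of all genes, and 0 lower, against 14.7%. DESeq2 called 13 higher (11.6% of all genes) and 0 lower (20.1%), or 7 higher without the filter (6.78%), and limma called 2 higher (3.70%). The median log2 fold change was 1.33, against 0.01 over all genes, and 51 of the 53 values were above 0, against 50.2% of all genes. Without control replicate 1, edgeR called 20 of 54 higher, against 15.5% of all genes, and the count was 0 in 5 of the other 7 fits that left out a library, those without control replicate 2, 3 or 4 or HADA replicate 1 or 3.

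The gene called was Cd8b1, a chain of the CD8 coreceptor of cytotoxic T cells. It stood at 0.621, 2.35, 1.26 and 1.85 CPM in control replicates 1 to 4 and at 29, 14.2, 45.7 and 109 CPM in HADA replicates 1 to 4. Each HADA library was above each control library (log2 fold change 4.97 ± 1.0, SE, edgeR adjusted p = 0.0301). Per kb of span, the mean of Cd8b1 was 0.103 CPM in control and 3.37 CPM in HADA. The control mean lay below the receptor-gene density of control replicates 2, 3 and 4 (0.337, 0.288 and 0.202 CPM per kb). With either subtraction of that density, 0 genes of this list were called. Cd8a, its partner chain, had 0, 13, 18 and 4 counts in control and 4, 6, 464 and 1101 counts in HADA, so that only HADA replicates 3 and 4 were high. The study defines the Tregs sorted for its suppression assay as CD4+CD25+, and whether the same gate served for these libraries is not given in the sources used here. A gate on CD4 would be meant to leave out CD8 T cells, and their part in the levels of the CD3 genes was not tested.

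By role, the coreceptor genes Cd8a and Cd8b1 had a median log2 fold change of 5.46, the receptor constant regions 2.23, the costimulatory receptors 2.40, the kinases 0.64, the adaptors 0.61, the effectors 1.26 and the inhibitors 1.31. Among constant regions, Trbc1 had a log2 fold change of 2.83 ± 1.23 (SE, edgeR adjusted p = 0.172) and Trbc2 of 2.23 ± 0.88 (SE, edgeR adjusted p = 0.148). The group of costimulatory receptors was listed with Ctla4, whose product competes with CD28 for its ligands and inhibits, so its median is not one of activating receptors only. The value of Icos was 2.38, that of Ctla4 was 2.81 ± 1.07 (SE, edgeR adjusted p = 0.138), and that of Cd2 was 2.40 ± 1.17 (SE, edgeR adjusted p = 0.202). The adaptor Skap1 was at 1.48 ± 0.70 (SE, edgeR adjusted p = 0.194). Without control replicate 1, edgeR called Trbc1 (4.92, adjusted p = 0.0247), Trbc2 (3.58, adjusted p = 0.0149), Ctla4 (4.57, adjusted p = 0.0156) and Skap1 (1.99, adjusted p = 0.0494), but not Cd2 (3.47, adjusted p = 0.0821).

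Stim1, the calcium sensor of the endoplasmic reticulum, was the effector with the highest mean CPM over the 8 libraries, a rank not corrected for length. It stood at 153, 149, 500.1 and 633 CPM in control and at 1511, 1288, 1584 and 1115 CPM in HADA, without overlap, and missed the threshold with a log2 fold change of 1.94 ± 0.70 (SE, edgeR adjusted p = 0.127). Plcg1 had the largest value among effectors, 2.13 ± 1.43 (SE, edgeR adjusted p = 0.324), from 397 counts in HADA replicate 3 and at most 64 elsewhere. Without that library it was -0.97, and other spans cover 93.5% of its exon bases. Among inhibitors, Sit1 was at 4.42 ± 1.57 (SE, edgeR adjusted p = 0.124), from 15, 3, 10 and 2 counts in control replicates 1 to 4. Without control replicate 1 it was called at 8.0 (adjusted p = 0.00659), while Stim1 was not (1.80, adjusted p = 0.0574). The phosphatase gene Ptpn22, the inhibitor of highest mean CPM over the 8 libraries, was at -0.45 ± 0.64 (SE, edgeR adjusted p = 0.644).

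**Figure D4:**
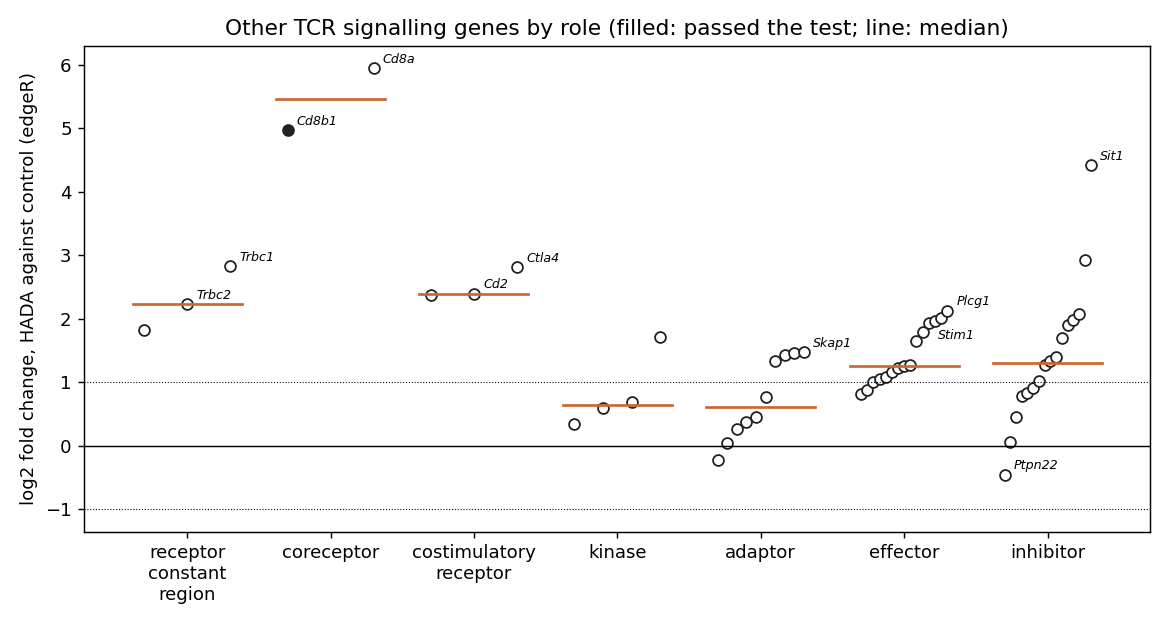
Log2 fold change, HADA against control, of the 53 other TCR signalling genes that passed the filter, grouped by role, from edgeR. Each point is a gene, filled where it passed the test (Cd8b1 only), orange lines are medians of the role, and dotted lines mark a log2 fold change of 1 in either direction.

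The label of the cells was checked against marker lists. The gene said to lead a list is that of highest mean CPM over the 8 libraries, with no correction for length. Foxp3, the defining gene of Tregs, and Tnfrsf18 are listed at 0 in every library because other gene spans cover 100% of theirs, so these counts cannot show them. The Treg list of 10 genes summed to 1133, 241, 514 and 571 CPM in control replicates 1 to 4 and to 1763, 936, 2939.8 and 3983 CPM in HADA replicates 1 to 4, and it was led by Ikzf2. Il2ra, which encodes the CD25 of the sort for the suppression assay, stood at 178, 10.5, 7.23 and 59.5 CPM in control and at 309, 163, 287 and 748 CPM in HADA. Thus the libraries low in Cd4, control replicates 2 and 3, were also the lowest in Il2ra. The T cell list of 8 genes, led by Trbc2, summed to 2813, 268, 305 and 2492 CPM in control and to 3837, 2468, 5656 and 8394 CPM in HADA, and 0 of its genes were at 0 throughout.

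Markers of other blood cells were present too. The B cell list of 8 genes, led by Ebf1, summed to 3441, 419.9, 2056 and 3116 CPM in control replicates 1 to 4 and to 1659, 1371, 3326 and 4028 CPM in HADA replicates 1 to 4. Ms4a1 is listed at 0 with a fully covered span. B cell markers were thus within a like range in both groups, apart from the low control replicate 2.

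The myeloid list of 12 genes, led by Lyz2, summed to 2441, 83.1, 347 and 1415 CPM in control replicates 1 to 4 and to 2596, 4914, 5013 and 2118 CPM in HADA replicates 1 to 4. The platelet list of 6 genes, led by Ppbp, summed to 469.8, 43, 54 and 317 CPM in control and to 1663, 268, 1132 and 1363 CPM in HADA. Both lists were lowest in control replicates 2 and 3. For some single genes of these lists, named after their values were seen, the groups did not overlap. Tyrobp stood at 79.5, 1.72, 13.1 and 26.5 CPM in control and at 480.2, 585, 434 and 499 CPM in HADA (log2 fold change 4.06 ± 1.04, SE, edgeR adjusted p = 0.063). The log2 fold changes of Fcer1g (3.48), Cst3 (2.05) and the platelet gene Gp9 (3.76) were likewise from groups that did not overlap. In all, 3 of the 11 myeloid and 1 of the 4 platelet genes tested had all HADA above all control libraries, against 9.13% of all genes, and DESeq2 called 3 of the 11 and 2 of the 4 higher, against 11.6%. Of the red cell list of 7 genes, led by Hba-a1, the sum was 28367, 1029, 4143 and 7309.6 CPM in control and 2807, 999.6, 146 and 173 CPM in HADA, highest in control replicate 1, and Alas2 is listed at 0 with a fully covered span. All 6 red cell genes tested were lower at an unadjusted p below 0.05, against 14.7% of all genes, and edgeR called 0 of them, while DESeq2 called 6 lower, against 20.1%.

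The natural killer list of 8 genes, led by Gzma, summed to 57.8, 11.9, 95.2 and 106 CPM in control and to 84.7, 117, 3.96 and 414 CPM in HADA, and its defining gene Ncr1 had at most 134 counts. The gamma delta list of 5 genes, led by Tcrg-C4, summed to 14.3, 9.68, 15.4 and 2.9 CPM in control and to 6.82, 9.63, 52.4 and 74.4 CPM in HADA, with at most 6 counts of Trdc, of which other spans cover 38.6% of the exon bases. The CD8 list of 2 genes, led by Cd8b1, summed to 0.621, 2.76, 1.89 and 2.09 CPM in control and to 29.1, 14.5, 73.1 and 176 CPM in HADA. The CD8 list was higher in each HADA library than in each control library, while the sums of the other lists overlapped. The part of other cell types in the levels of the 10 genes was not tested.

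**Figure D5:**
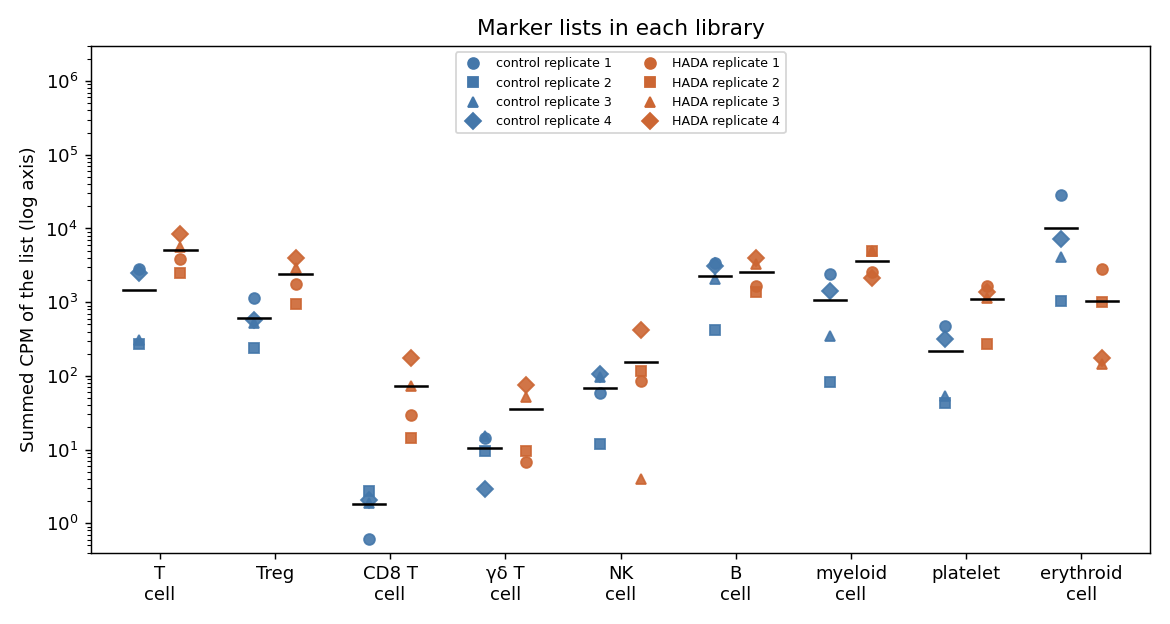
Summed CPM of each marker list in each library on a log axis, with marks as in the plot of levels and black lines for group means (n = 4). The erythroid list has a lower mean in HADA, and only the CD8 list has all HADA marks above all control marks.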

How the data were processed

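Transcriptomes of Tregs from 4 HADA and 4 control libraries were used, grouped and numbered from their labels. Per the paper's methods, the authors used FastQC and Trimmomatic on the reads, STAR for alignment to GRCm39 and featureCounts for counting. The deposited values are raw counts for 56980 genes, over the whole gene span for 100% of them, and reads in overlapping spans were not counted. Strand settings are not given in the sources used here. Gene names came from GENCODE vM39, which held 98.7% of the identifiers.

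HADA was compared with control by edgeR 4.0.16 (TMM, filterByExpr, quasi-likelihood test, no covariates) in R 4.3.3 on 21991 genes, with Benjamini-Hochberg adjustment over all of them. Alternatives were DESeq2 1.42.0 and its size factors, limma 3.58.1 on log2(CPM + 1), leaving out each library, a block for the replicate number, dropping the filter, requiring 10 or more counts throughout, drawing libraries down to 1477431 counts, and subtracting the mean density on 1393 receptor genes. Chosen after seeing the data were the same subtraction without the 5% of receptor genes of highest density, DESeq2 without control replicate 1, and DESeq2 without the filter. DESeq2 was run first with the filter, then without it once that result was seen. Both counts are given, and the first keeps the filter and changes the test with its scaling. Tables and plots used scipy 1.17.1, numpy 2.4.6, pandas 2.3.3 and matplotlib 3.10.9 in Python 3.11.15. The methods were tested on simulated data.

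The members and lists were chosen with earlier results of these data known. Genes named are the 10 members, every pathway gene called, for each role the gene of highest mean CPM and that with the largest absolute log2 fold change, the gene of highest mean CPM of each marker list with Foxp3, Il2ra, Cd8a, Ncr1 and Csf1r, and the 8 genes most correlated with Cd3e. Some genes that this rule covers are not reported here. Other genes were named after their values were seen. ATAC-seq and flow cytometry data were not analysed here.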

Additional observations from a re-analysis of the deposited data

Results flagged for a closer look

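In 84 sets of 4 libraries checked (a gene or a summed marker list in a group), 2 held a library far from the other 3, by the gap to its nearest neighbour as a share of the whole range. Chance alone gives about 1 in 20 sets, or 4.2 here. Sit1 was at 6.82 log2 CPM in HADA replicate 4 and between 4.39 and 4.63 in the other HADA libraries. Ptpn22 was at 9.20 log2 CPM in HADA replicate 3 and between 8.27 and 8.34 in the other HADA libraries.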

How the results depend on the processing

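The cause of the changes below was not tested. The count of the 10 genes called higher was 0 with edgeR, 4 with DESeq2, 2 with DESeq2 without the filter, 5 with DESeq2 without control replicate 1 and 1 with limma, and 0 to 3 when a library was left out. The DESeq2 count thus moved from 4 to 2 with the filter alone. It was 0 under all other alternatives, and 0 of the 10 were called lower under any. For the other TCR signalling genes, 1 was called higher with edgeR, 13 with DESeq2, 7 with DESeq2 without the filter, 31 with DESeq2 without control replicate 1, 2 with limma, 0 to 20 when a library was left out, and 0 with at least 10 counts in every library, drawn-down libraries, either subtraction of receptor-gene density and the block. All genes called higher numbered 363 and lower 105. They were 2457 and 4247 with DESeq2, 2080 and 3465 with DESeq2 without the filter, 6281 and 5988 with DESeq2 without control replicate 1, 814 higher with limma, 54 lower without a filter, 93 higher with at least 10 counts, 62 and 52 drawn down, 97 and 650 higher with the mean and the trimmed subtraction, and from 28 to 3716 higher and 1 to 4732 lower when a library was left out. The median of all genes moved from 0.01 to -0.19 with DESeq2 size factors, to -0.20 with DESeq2 and to 0.13 with limma. Without a filter it was -0.37, and with DESeq2 without the filter -0.99, both over 41823 genes. With the subtractions it was 1.0 (9193 genes) and 1.32 (11322 genes). When a library was left out it lay between -0.30 and 0.07, and it was 0.13 with DESeq2 without control replicate 1. The genes kept differ without a filter, with the subtractions and when a library was left out. The median of the 10 was 1.37 with edgeR, 1.23 with DESeq2 or its size factors alone, 1.26 with DESeq2 without the filter, 2.02 with DESeq2 without control replicate 1, 2.33 with limma, 1.57 without a filter, 0.81 with at least 10 counts, 0.99 drawn down, 0.76 and 0.81 with the subtractions, 2.28 with the block and 0.99 to 1.90 when a library was left out. With the replicate number as a replicate block, 158 genes were called higher and 11 lower, and 0 of the 10. Over the genes tested, the deviations of same-numbered libraries from their group means had r of -0.207, 0.252, -0.0805 and -0.00316. The labels do not say whether equal numbers share a sort or a batch, and these values cannot decide it. Signs turned for 3 genes, none of them called. Zap70 went from -0.37 to 1.27 with limma, 1.73 with the block and between -0.82 and 0.88 when a library was left out. Lck went from 0.30 to -0.31 with at least 10 counts, -0.28 drawn down, -0.31 and -0.26 with the subtractions and between -0.17 and 1.14 when a library was left out. Cd28 went from -0.05 to 0.26 with limma, 0.19 without a filter, 0.25 with the block, 0.05 with DESeq2 without control replicate 1 and between -0.42 and 0.42 when a library was left out. The other 7 genes kept a positive sign throughout.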

Other observations

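The 8 genes outside the 10 whose log2 CPM followed Cd3e most closely over the 8 libraries were Trim25 (Pearson r 0.994, Spearman rho 0.976), Tuba1b (0.991, 0.762), Vamp8 (0.990, 0.810), Irf9 (0.990, 0.976), H3f3a (0.987, 0.905), Nfe2l2 (0.987, 0.833), Ramac (0.986, 0.857) and Xiap (0.986, 0.905). None is on the list of TCR signalling genes, and all 8 were lowest in control replicate 2, as Cd3e was. These values share the libraries and their scaling and are a description. Among the 10 genes, r with Cd3e was 0.917 for Ptprc, 0.901 for Lat, 0.891 for Cd247, 0.867 for Lck, 0.862 for Cd3g, 0.742 for Cd28, 0.675 for Cd3d, 0.648 for Cd4 and 0.436 for Zap70. In control replicate 2 Cd3e lay below the receptor-gene density. Without that library r was higher for Cd3d and lower for the others: it was 0.749 for Cd3d, 0.719 for Cd247, 0.687 for Lat, 0.581 for Ptprc, 0.497 for Cd3g, 0.018 for Cd4, -0.0108 for Lck, -0.106 for Cd28 and -0.249 for Zap70, and between 0.815 and 0.943 for the 8 genes outside the 10.

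The monocyte and macrophage gene Csf1r stood at 93.2, 17.2, 2.48 and 42.4 CPM in control replicates 1 to 4 and at 58.2, 203, 85.4 and 16.5 CPM in HADA replicates 1 to 4, with overlapping groups.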
